A study of Mus musculus with 4 samples.

Results

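The sites described here are the DNase I accessible sites around Il7r, Il2ra and Il2rb, the mouse genes for receptor chains of interleukin-7, interleukin-15 and interleukin-2. They were chosen by position alone, as the peaks whose midpoint lay in chr15:9380000-9520000 (Il7r), chr2:11500000-11640000 (Il2ra) or chr15:78280000-78360000 (Il2rb) of the mm9 build. This gave 61 of the 84735 listed peaks. Overlapping peaks of the 4 libraries were merged into sites, and the windows held 30 of 38986 sites, 10 in each window. Sites are numbered along the chromosome within their window.

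The libraries are DNase-seq, in which DNase I cuts open chromatin in lysed cells and the released DNA is sequenced. There were 2 libraries of Tcf1-/-Lef1-/- cells (double knockout, DKO) and 2 of wild-type cells (WT). Tcf1 and Lef1, absent from the DKO cells, are transcription factors of one family that shape T cells. The DKO mice carried floxed alleles of both genes, and mice of both genotypes carried the hCD2-Cre transgene and the Rosa26-lsl-GFP reporter. Cells of both genotypes came from spleen, were sorted as GFP+ TCRbeta+ CD62Lhi CD44lo-med CD8+ and were cultured for 72 h with IL-7 and IL-15. The hCD2-Cre transgene is active in lymphocytes, and GFP marks cells in which Cre has acted, so the WT cells had been exposed to Cre too. The labels give no age or sex. Nothing in them ties a replicate to its own mouse or culture, so p-values measure only the spread between these libraries, which may be technical. The deleted genes and the marker genes of the sorted cells were not checked, because an mm9 annotation was not used here.

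Il7r encodes CD127, the chain that binds IL-7. Il2rb encodes CD122, which IL-15 and IL-2 receptors share, and Il2ra encodes CD25, which gives high affinity for IL-2. CD127 and CD122 each pair with the common gamma chain, encoded by Il2rg, and signal through the kinases Jak1 and Jak3 to the transcription factor STAT5. Naive T cells depend on IL-7 for survival and lower Il7r expression after IL-7 signalling. CD25 is scarce on resting T cells and is induced by activation and by STAT5. CD122 is higher on memory CD8+ T cells, which depend on IL-15. The windows are wider than the genes. In RefSeq (GRCm38.p6), the neighbouring protein-coding genes are Capsl and Spef2 for Il7r, Rbm17 and Il15ra for Il2ra, and Tmprss6 and C1qtnf6 for Il2rb. The mm9 sites were not assigned to a promoter, an intron or a neighbour.

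The promoters of Il7r and Il2ra are shown as the regulatory sequence of genes that the windows were drawn around. They are 300 bases each from RefSeq (GRCm38.p6), 250 before and 50 after the gene start, on the strand of the gene. That of Il7r is chr15:9529827-9530126 (minus strand) and that of Il2ra chr2:11642542-11642841 (plus strand). These positions are of another build than the peaks and cannot be set against them, so no peak was placed on either promoter. No promoter of Il2rb is shown. Capitals mark matches, on either strand, to the motif letters given after them.
Il7r: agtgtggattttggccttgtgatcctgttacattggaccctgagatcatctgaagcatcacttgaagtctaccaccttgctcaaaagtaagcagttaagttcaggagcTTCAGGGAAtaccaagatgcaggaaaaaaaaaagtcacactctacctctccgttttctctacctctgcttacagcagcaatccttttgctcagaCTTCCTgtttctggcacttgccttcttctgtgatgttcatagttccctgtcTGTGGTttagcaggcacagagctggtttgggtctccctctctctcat
Il2ra: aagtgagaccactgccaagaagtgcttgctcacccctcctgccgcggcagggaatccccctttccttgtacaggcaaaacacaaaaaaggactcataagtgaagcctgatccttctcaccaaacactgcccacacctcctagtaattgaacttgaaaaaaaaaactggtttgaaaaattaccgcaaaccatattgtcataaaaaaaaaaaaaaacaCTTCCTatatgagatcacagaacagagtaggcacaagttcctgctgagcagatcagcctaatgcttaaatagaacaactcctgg
The Il7r promoter held 1 match to the STAT5 letters TTCNNNGAA at bases 109 to 117. It held 1 match to the ETS letters AGGAAG, on the other strand, at bases 203 to 208. A match to the RUNX letters TGTGGT lay at bases 254 to 259, and none of the 3 overlapped another. The Il2ra promoter held 1 ETS match, also on the other strand, at bases 217 to 222. Of 32851 promoters of this length, 8.30% held the STAT5 letters, 35.4% the ETS letters and 16.8% the RUNX letters. Neither promoter held the TCF/LEF letters CTTTGA, which 16.0% of all promoters held. Neither held the GATA letters AGATAA, found in 11.2%. Such matches describe letters and not binding.

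The libraries differed in list length and in local background, which bears on every count below. The DKO lists held 34788 and 21353 peaks and the WT lists 17521 and 11073 (replicates 1 and 2). Read totals are not given, but the lowest local background, which grows with depth where no control library sets it, was 1.23 and 1.15 fragments in the DKO libraries and 1.5 and 1.47 in the WT libraries. The fewest fragments at any listed summit were 8 in each DKO library, and 10 and 9 in the WT libraries. A site missing from a list was not shown to be closed, since weak calls are not listed and some calls had been removed before deposit. The DKO lists also held 55 and 57 peaks on chromosome Y and the WT lists 0. This split follows genotype in all 4 libraries, so a difference in sex, which the labels do not give, cannot be told apart from genotype. The part of chromosome Y in the differences at the receptor windows, which lie on autosomes, was not tested.

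More peaks were listed in the receptor windows in DKO cells. The 3 windows together held 27 and 17 peaks in DKO replicates 1 and 2, against 11 and 6 in WT replicates 1 and 2. Of the 30 sites, 28 (93.3%) were listed in at least 1 DKO library and 13 (43.3%) in at least 1 WT library. Both shares were near those over all sites, 93.6% and 49.7%. The mean peak number was 2.59 times as high in DKO as in WT libraries, and over the whole lists it was 1.96 times as high. Scaled to list length, the windows held 7.76 and 7.96 of every 10000 peaks in the DKO lists, against 6.28 and 5.42 in the WT lists. By window the scaled DKO and WT means were 2.84 and 1.02 for Il7r, 2.55 and 2.04 for Il2rb, and 2.46 and 2.78 for Il2ra. How often other sets of 3 windows differ in this way was not computed. With 2 against 2 libraries an exact two-sided permutation test cannot give less than p = 0.33, the value found here for the scaled numbers.

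**Figure D1:**
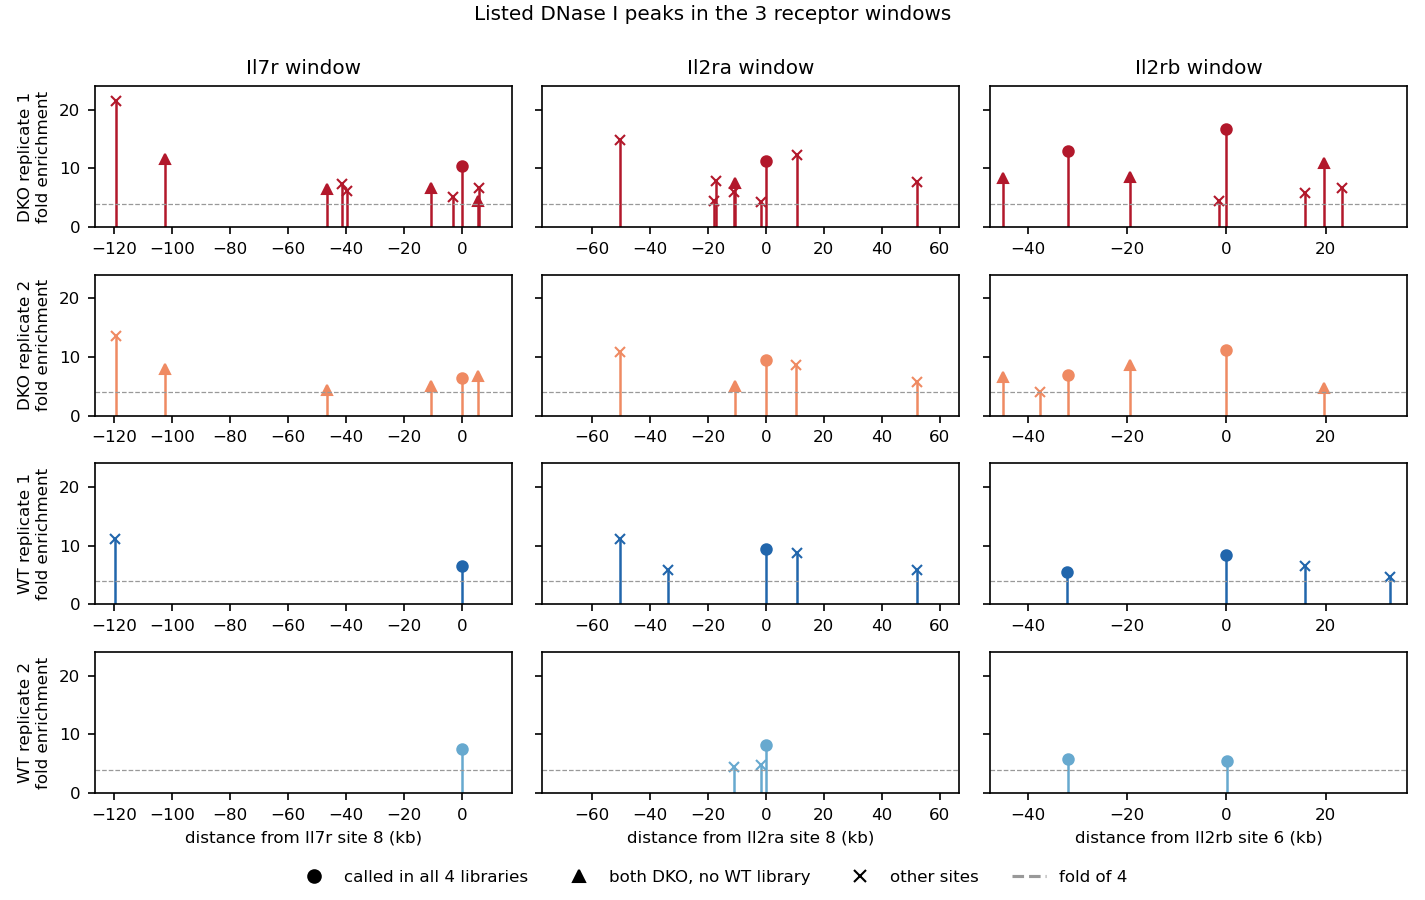
Listed peaks in the Il7r, Il2ra and Il2rb windows, with the distance from a site called in all 4 libraries (kb) on the x axis and the authors' fold enrichment on the y axis, 1 row per library. Circles are sites called in all 4 libraries, triangles sites called in both DKO and no WT library, and crosses all others; the Il7r row of WT replicate 2 holds 1 peak and that of DKO replicate 1 holds 10.

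In the full lists the Il7r window had the largest difference in peak number of the 3 windows. With a −log10 q of at least 10 that of Il2rb was larger, at 3.0 against 2.5 peaks, and at equal list length both were 0.5. The Il7r window held 10 and 6 peaks in the DKO libraries, against 2 and 1 in the WT libraries, or 8.0 ± 2.8 against 1.5 ± 0.71 (SD, n = 2 each). Both DKO libraries were above both WT libraries (exact two-sided permutation p = 0.33), as they were in 52.8% of 3514 grid windows of 140 kb with at least 10 peaks. Scaled to list length the window held 2.87 and 2.81 of every 10000 peaks in the DKO lists, against 1.14 and 0.903 in the WT lists, a ratio of 2.78. Scaled numbers were above WT in both DKO libraries in 21.5% of the grid windows, and there with a mean at least 2 times that of WT in 6.86%. With all lists held to their 11073 strongest peaks, the window held 2 and 2 peaks in the DKO libraries and 2 and 1 in the WT libraries. That limit cut the DKO lists at a higher −log10 p than the WT lists.

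A single site of the 10 in the Il7r window was called in every library, beside 20.7% of all sites. Il7r site 8, chr15:9504675-9504924, had fold enrichments of 10.4 and 6.37 in DKO replicates 1 and 2, against 6.49 and 7.51 in WT replicates 1 and 2. Fold enrichment is the authors' own value for a peak, the fragments at the summit over the local background. At the summit there were 38 and 15 fragments in the DKO libraries, against 21 and 24 in the WT libraries. The WT values lay between the DKO values on both measures. The 4 summits fell within 40 bp of each other.

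The strongest site of the Il7r window in 3 of the libraries was not listed in the remaining one. Il7r site 1, chr15:9385042-9385345, lay 119.6 kb from site 8 and had 58 and 30 fragments in DKO replicates 1 and 2, against 31 in WT replicate 1. Its folds were 21.5 and 13.6 in the DKO libraries and 11.1 in WT replicate 1, with summits within 10 bp. Within its own list the peak stood at the 96.5th and 88.6th percentile of −log10 p in the DKO libraries and at the 92.2nd in WT replicate 1. WT replicate 2, the shortest list, did not hold it.

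Sites called in both DKO libraries and in no WT library numbered 4 of 10 in the Il7r window. Over all sites the share was 14.3%. The strongest was Il7r site 2, chr15:9402069-9402324, with 29 and 16 fragments and folds of 11.6 and 7.92 in DKO replicates 1 and 2. Il7r site 3, chr15:9458058-9458202, had 21 and 10 fragments and folds of 6.54 and 4.45. Il7r site 6, chr15:9493943-9494240, had 16 and 10 fragments and folds of 6.62 and 5.12. The remaining one, Il7r site 9 at chr15:9510321-9510595, was the higher in DKO replicate 2, with folds of 4.46 and 6.70 on 14 fragments in each DKO library. In DKO replicate 2, sites 3, 6 and 9 rested on 10, 10 and 14 fragments, against a fewest of 10 and 9 at any summit of the WT lists. The other 4 sites of the window were listed in DKO replicate 1 alone, as 31.6% of all sites were. None of the 10 was listed in a WT library without a DKO call, beside 6.40% of all sites.

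**Figure D2:**
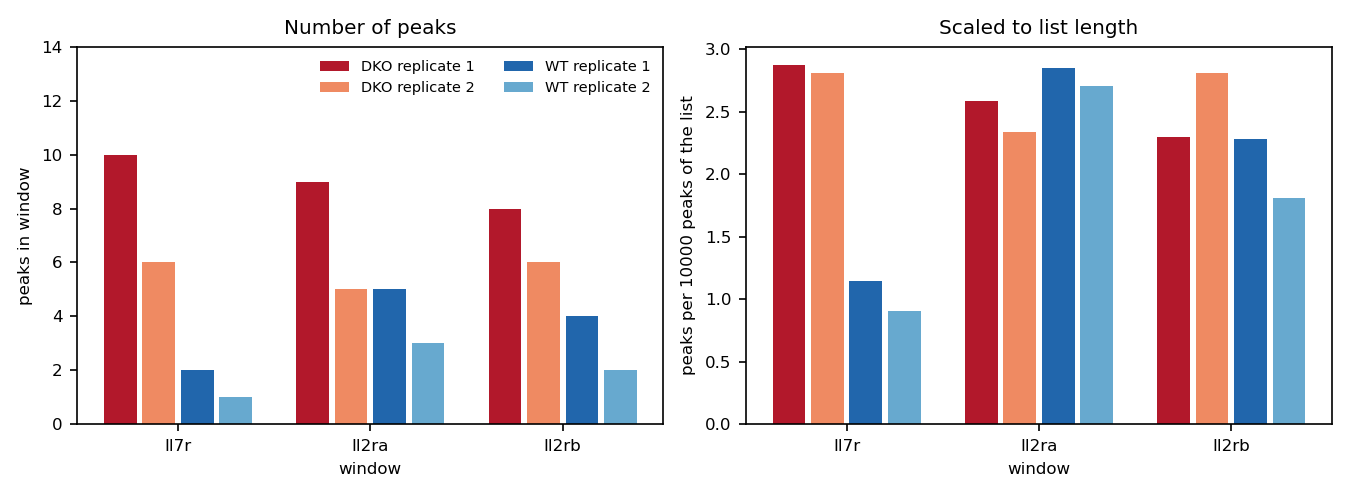
Peaks in each window by library (left, number; right, per 10000 peaks of the library's own list). The DKO bars exceed the WT bars in the Il7r window on both scales, and in the Il2ra window the order turns on the scaled axis, at 2.59 and 2.34 in DKO against 2.85 and 2.71 in WT.

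The Il2ra window held more peaks in DKO cells but a smaller share of the DKO lists. It held 9 and 5 peaks in the DKO libraries, against 5 and 3 in the WT libraries, or 7.0 ± 2.8 against 4.0 ± 1.4 (SD, n = 2 each, exact two-sided permutation p = 0.67). The difference of 3.0 peaks was 1.0 without DKO replicate 1 and 5.0 without DKO replicate 2. Scaled to list length it turned round, at 2.59 and 2.34 of every 10000 peaks in the DKO lists, against 2.85 and 2.71 in the WT lists (exact two-sided permutation p = 0.33). Scaled numbers were below WT in both DKO libraries in 21.4% of the grid windows. At equal list length there were 3 and 3 peaks in the DKO libraries and 5 and 3 in the WT libraries.

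Il2ra site 8, chr2:11575054-11575283, was called in all 4 libraries. It had 48 and 29 fragments in the DKO libraries, against 31 and 27 in the WT libraries. The folds were 11.3 and 9.57 in DKO and 9.37 and 8.10 in WT. It was the strongest peak of the window in WT replicate 2, and the DKO folds were above the WT folds, as at 76.9% of all sites called in all 4 libraries, while the median fold of the whole list was 8.50 and 7.24 in DKO and 6.43 and 6.13 in WT. In DKO replicate 1 the summit lay up to 108 bp from those of the other libraries.

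Il2ra site 1, chr2:11524837-11525048, lay 50.2 kb from site 8 and was the strongest of the window in the other 3 libraries. It had 42 and 29 fragments in the DKO libraries, against 33 in WT replicate 1, and the WT value lay between those of the DKO libraries. The folds were 14.8 and 10.8 in DKO and 11.2 in WT replicate 1. Il2ra site 9, chr2:11585635-11585874, and Il2ra site 10, chr2:11627292-11627473, were called in the same 3 libraries. Site 9 had 32 and 20 fragments in DKO and 26 in WT replicate 1, and site 10 had 21 and 14 in DKO and 17 in WT replicate 1. With Il7r site 1, all 4 sites of the windows called in exactly 3 libraries lacked a call in WT replicate 2. Over all sites called in exactly 3 libraries this held for 75.0% of 6008.

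A pair of neighbouring sites in the Il2ra window differed in which libraries listed them. Il2ra site 6, chr2:11564401-11564559, was the 1 DKO-only site among the 10 of the window, beside 14.3% of all sites. It had 24 and 11 fragments and folds of 7.43 and 5.05 in DKO replicates 1 and 2. Il2ra site 5, chr2:11564085-11564273, lay just before it and was listed in DKO replicate 1 with 19 fragments and in WT replicate 2 with 10. The WT call at site 5 stood at the 3.49th percentile of its list. Merging peaks within 500 bp joined sites 5 and 6, and the joined site was then no longer DKO-only. Il2ra site 7, chr2:11573258-11573417, was also listed in DKO replicate 1 and WT replicate 2, with 17 fragments in DKO and 15 in WT. Il2ra site 2, chr2:11541375-11541489, was listed in WT replicate 1 alone, with 17 fragments.

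The Il2rb window held 8 and 6 peaks in the DKO libraries, against 4 and 2 in the WT libraries, or 7.0 ± 1.4 against 3.0 ± 1.4 (SD, n = 2 each). The libraries of the genotypes did not overlap (exact two-sided permutation p = 0.33), as in 51.8% of 3162 grid windows of 80 kb with at least 10 peaks. Scaled to list length the values were 2.30 and 2.81 of every 10000 peaks in the DKO lists and 2.28 and 1.81 in the WT lists, a ratio of 1.25. Scaled numbers were above WT in both DKO libraries in 21.2% of these grid windows. At equal list length there were 3 and 2 peaks in the DKO libraries and 2 and 2 in the WT libraries.

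Of the 10 sites in the Il2rb window, 2 were called in all 4 libraries, beside 20.7% of all sites. The Il7r and Il2ra windows held 1 such site each. Il2rb site 6, chr15:78325432-78325785, had 61 and 36 fragments in DKO replicates 1 and 2, against 32 and 17 in WT replicates 1 and 2. Its folds were 16.8 and 11.1 in DKO and 8.37 and 5.37 in WT, and the summits of the 4 libraries fell within 10 bp. Both DKO libraries were above both WT libraries on each measure, as at 76.9% of the 8068 sites called in all 4 libraries for fold and at 57.2% of the 8039 of them with solved fragments. Il2rb site 3, chr15:78293428-78293836, lay 32.0 kb from site 6 and had 30 and 15 fragments in DKO, against 16 and 16 in WT. Its folds were 13.0 and 6.91 in DKO and 5.52 and 5.86 in WT. At site 3 the fragments of DKO replicate 2 were 1 below both WT libraries.

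DKO-only sites numbered 3 of 10 in the Il2rb window, beside 14.3% of all sites. Il2rb site 1, chr15:78280606-78280757, had 32 and 19 fragments and folds of 8.36 and 6.54 in DKO replicates 1 and 2. Il2rb site 4, chr15:78306063-78306330, had nearly equal folds of 8.59 and 8.55 on 23 and 21 fragments. Il2rb site 8, chr15:78345132-78345316, was the most uneven, with folds of 10.8 and 4.69 on 40 and 14 fragments. Il2rb site 7, chr15:78341303-78341460, was listed in both replicates 1, with 16 fragments in DKO and 24 in WT. Il2rb site 10, chr15:78358465-78358582, was listed in WT replicate 1 alone, with 17 fragments. Site 1 lay 681 bp inside the edge of the window. The nearest site beyond that edge, 1162 bp outside, was also DKO-only, with folds of 9.39 and 6.16. Beyond the other edge, 2577 bp outside, a site was called in all 4 libraries, with folds of 19.8 and 15.7 in DKO and 13.3 and 8.97 in WT, while site 10 lay 1477 bp inside. The nearest sites outside the other windows lay 6620 bp or more from an edge.

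**Figure D3:**
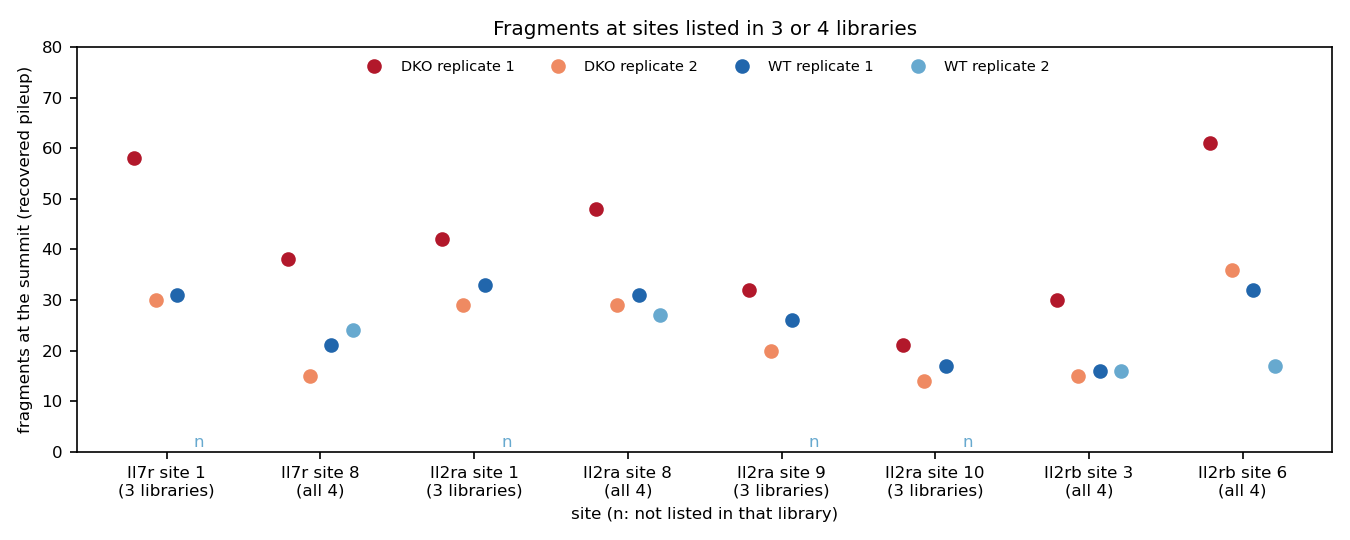
Fragments at the summit (y axis, number recovered from the authors' fold and p) for the 8 sites listed in 3 or 4 libraries (x axis), by library; n marks a library that did not list the site. DKO replicate 1 has the most fragments at each of the 8 sites, and DKO replicate 2 lies below each WT library that listed the site at 6 of them, between the WT libraries at Il2ra site 8 and above both at Il2rb site 6. Fragments are not scaled to library depth. By fold, DKO replicate 2 is above WT at Il7r site 1 (13.6 against 11.1) and Il2rb site 3 (6.91 against 5.52 and 5.86). At the others of these 6 sites it is below WT by fold too.

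Across the windows, 8 of 30 sites (26.7%) were DKO-only, beside 14.3% of all 38986 sites. None of the 30 was WT-only, beside 0.631% of all sites. Sites called in all 4 libraries numbered 4 of 30 (13.3%), beside 20.7% of all sites. A further 8 sites were listed in DKO replicate 1 alone, 1 in DKO replicate 2 alone, 2 in WT replicate 1 alone and 0 in WT replicate 2 alone. Over all sites these shares were 31.6%, 4.30%, 4.28% and 1.49%. Folds at these 11 sites ran from 4.0, the lowest fold of every list, to 7.89. At the 8 DKO-only sites the median fold was 7.89 in DKO replicate 1 and 5.83 in DKO replicate 2, close to the 8.16 and 6.06 of all 5593 DKO-only sites. Without DKO replicate 2 the DKO-only count was 16. Without WT replicate 2 there were 8 sites called in all remaining libraries and 2 WT-only sites. Shares over all sites were not computed with a library left out or at equal list length. With all lists at 11073 peaks no site of the windows was DKO-only and 2 were called in all 4 libraries, Il2ra site 8 and Il2rb site 6. That limit was uneven, as the lowest −log10 p kept was 27.3 and 13.6 in DKO replicates 1 and 2. In WT replicates 1 and 2 it was 10.8 and 5.40, so DKO peaks were dropped at −log10 p values kept in WT. Read totals are not given, so these values were not compared at equal depth.

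Folds differ between lists, so the 4 shared sites were compared by their percentile of fold among the 8068 sites called in all 4 libraries. Il2ra site 8 stood at percentiles of 31.6 and 49.7 in the DKO libraries, against 77.2 and 76.9 in the WT libraries. Its mean rank was lower in DKO, at 40.6 ± 12.9 against 77.0 ± 0.23 (SD, n = 2 each, exact two-sided permutation p = 0.33). Il7r site 8 stood at 23.6 and 12.0 in DKO, against 30.1 and 68.0 in WT, also lower in both DKO libraries (exact two-sided permutation p = 0.33). Il2rb site 6 went the other way, at 79.0 and 66.9 in DKO, against 64.1 and 22.6 in WT (exact two-sided permutation p = 0.33). Il2rb site 3 overlapped, at 47.3 and 17.6 in DKO and 13.7 and 33.1 in WT (exact two-sided permutation p = 0.67), and its mean difference of 9.01 was −5.65 without DKO replicate 1 and −0.36 without WT replicate 1. Ranks were below WT in both DKO libraries at 19.0% of the 8068 sites and above WT at 19.1%. The Il2ra site 8 difference of −36.4 ran from −43.1 to −27.2 as each library was left out. That of Il7r site 8, −31.2, was −12.8 without WT replicate 2 and −49.1 without WT replicate 1. That of Il2rb site 6, 29.6, was 9.20 without WT replicate 2 and 49.5 without WT replicate 1. Ranked by −log10 p, the libraries overlapped at Il2rb site 6, with means of 76.9 in DKO and 49.4 in WT (exact two-sided permutation p = 0.67). On that ranking Il7r site 8 and Il2ra site 8 differed by −32.1 and −30.1 (exact two-sided permutation p = 0.33 each).

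**Figure D4:**
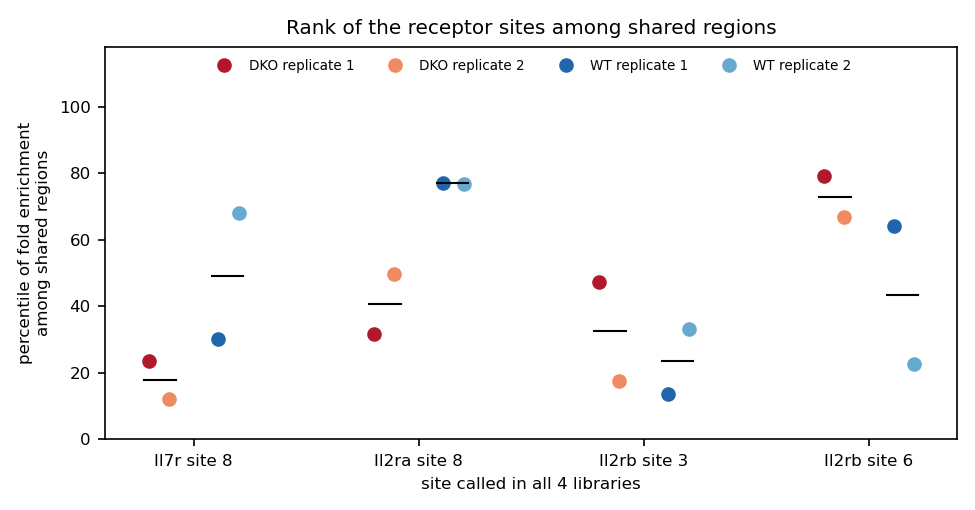
Percentile of fold enrichment among the 8068 sites called in all 4 libraries (y axis, 100 is the highest fold) for the 4 receptor sites called in every library (x axis). Points are libraries and bars the mean of 2; the DKO points lie below the WT points at Il7r site 8 and Il2ra site 8, above them at Il2rb site 6, and overlap them at Il2rb site 3.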

How the data were processed

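The authors deposited 1 peak list for each of the 4 libraries, with no pooled list. Per the submitters' processing notes, the tools were Bowtie2 2.2.5, MACS2 2.1.1 and FastQC, on mm9. Whether a control library was used, the settings and the handling of duplicates were not given in the sources used here. For each peak the authors deposited a fold enrichment (a ratio of summit pileup to local background), the −log10 p and −log10 q, and a score of 10 times the −log10 q. Positions were converted to count from 1.

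The pileup plus 1 over the background plus 1 gives the fold, and the Poisson chance of a larger pileup gives p. Both were solved for peaks with a −log10 p under 250. In every library 100% of the solved pileups were whole numbers (tolerance 0.02). The solution and the merging were run on data simulated from these same formulas, with sites set far apart. That run checks the code. It cannot show whether the formulas hold for the authors' values or how close neighbours merge.

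Peaks overlapping by at least 1 bp were merged into sites. A site was DKO-only when both DKO lists and neither WT list held it, and WT-only in the opposite case. Libraries were compared by exact two-sided permutation tests, whose smallest p at 2 against 2 is 0.33. Grid windows are on a fixed grid, counted where the 4 lists together held at least 10 peaks, and the bound of 2 times was set after the values were seen. The sites named one by one are those called in all 4 libraries, the DKO-only sites and the strongest per window and library. Il2ra sites 2, 5, 7, 9 and 10 and Il2rb sites 7 and 10 were named after their values were seen. Members and settings were chosen with earlier results of these data known. The planned pathway and marker lists needed an mm9 annotation, and the planned motif search of the sites an mm9 genome, which were not used here. Alternatives covered list thresholds, list length, overlap, merging, leaving out each library, the replicate block and scaling. Python 3.11.15, pandas 2.3.3, numpy 2.4.6 and scipy 1.17.1 were used.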

Additional observations from a re-analysis of the deposited data

Results flagged for a closer look

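Outside the receptor windows, chromosome Y carried 55 peaks in DKO replicate 1 and 57 in DKO replicate 2, against 0 in each WT library. This signal splits the libraries exactly as genotype does, so a difference in sex, which the labels do not give, cannot be told apart from genotype. Its part in the receptor windows was not tested.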

How the results depend on the processing

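The peak differences (DKO minus WT) of the Il7r and Il2rb windows kept their direction in each of the 10 alternatives run, and that of the Il2ra window in 8, the replicate block included, which cannot change them. Only equal list lengths and the scale per 10000 list peaks took out the difference in list length. At equal list lengths they were 0.5 peaks each for Il7r and Il2rb (exact permutation p = 1.0), with libraries that no longer separated by genotype, and −1.0 for Il2ra. Per 10000 list peaks, a scale added after the data were seen, the Il2ra difference was −0.32. With a −log10 q of at least 5 the DKO-only sites numbered 3. With at least 10 they numbered 2, 1 site was called in all 4 libraries, and the window differences were 2.5 for Il7r, 2.5 for Il2ra and 3.0 for Il2rb. At equal list lengths 0 sites were DKO-only and 2 were called in all 4 libraries. Here the peaks kept are fewer by construction. The lowest −log10 p kept was highest in DKO replicate 1, at 27.3, and lowest in WT replicate 2, at 5.40. Leaving out each library gave 8 to 16 DKO-only sites, 0 to 2 WT-only sites and 4 to 8 sites called in all remaining libraries. The window differences then ran from 4.5 to 8.5 for Il7r, 1.0 to 5.0 for Il2ra and 3.0 to 5.0 for Il2rb. Shares over all sites were not computed for the site counts of these alternatives. The rank difference of Il2rb site 3 ran from −5.65 to 25.0, and ranked by −log10 p it was −0.75; the cause was not tested. The median rank difference of the 4 shared sites was −11.1, and −17.3 to 0.66 with a library left out. With the replicate block the differences stayed at 6.5, 3.0 and 4.0 peaks (exact sign-flip p = 0.50 each, the smallest for 2 pairs), as the mean within numbers equals the difference of the means. The log2 fold deviations of same-numbered libraries had a Pearson correlation of −0.011 over the 8068 shared sites, and the numbers were not taken as pairs. That correlation cannot show a shift of a whole list. Replicate 1 had the longer list in both genotypes, 34788 against 21353 peaks in DKO and 17521 against 11073 in WT. Read depth is unknown, and the fewest fragments at a summit in the windows were 8.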

Other observations

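The running peak numbers of the lists follow position and have gaps, so calls had been removed before deposit. Over the whole lists 1476 and 908 numbers were missing in DKO replicates 1 and 2, beside 34788 and 21353 listed peaks. In WT replicates 1 and 2 there were 1530 and 871 missing, beside 17521 and 11073 listed peaks. Between listed peaks of the same window 1 number was missing in WT replicate 1 and 3 in DKO replicate 1. Gaps reaching past the first or last listed peak of a window were not counted. WT replicate 2 listed 1 peak in the Il7r window, so no stretch of that window was examined in this library. The missing WT call lay between chr15:78293748 and chr15:78325499 in the Il2rb window, a stretch that also holds the DKO-only Il2rb site 4. The missing calls of DKO replicate 1 lay between Il7r sites 1 and 2, between Il7r sites 6 and 7, and between Il2ra sites 8 and 9. Where within these stretches they lay is not recorded in the lists.

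At the 8 DKO-only sites the summits of both DKO libraries lay 6 to 61 bp apart. They were closest at Il7r site 6 and farthest apart at Il2rb site 1. At 5 of these sites, Il7r sites 2, 3, 6 and 9 and Il2rb site 8, they lay within 13 bp.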
